A study of Mus musculus with 9 samples.

Results

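Mouse embryonic stem cells deprived of leukemia inhibitory factor (LIF) for 7 days were compared with cells that kept it. The comparison uses 6 of the 9 arrays of the series, 3 labelled with LIF and 3 labelled without, chosen by their labels alone. Cells of both groups were of 1 line, D3-pOct4, grown at low density in medium with serum; the LIF group received 1000 U/ml. Each group has 1 array from each of passages 31, 33 and 34, so the arrays are named here LIF 31, LIF 33, LIF 34, no LIF 31, no LIF 33 and no LIF 34. A further group without LIF received a nitric oxide donor; its 3 arrays serve here only in the shared estimate of spread. RNA was hybridised to Affymetrix Mouse Genome 430 2.0 arrays, and 13376 genes could be tested. The labels do not say that cultures were grown apart beyond their passage, so every p-value measures the spread between these arrays.

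LIF binds a receptor made of Lifr and gp130 (Il6st), which activates JAK kinases and the transcription factor STAT3. STAT3 switches on its own inhibitor Socs3 and, in mouse embryonic stem cells, Klf4, Tfcp2l1 and other factors of the naive state, which resembles the epiblast before implantation. Cells that leave this state pass through a formative and primed epiblast stage marked by Fgf5, Otx2 and Dnmt3b, and later take on primitive streak, neural or other fates, while primitive endoderm is the separate lineage that lays down the first basement membrane.

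In passages 31 and 34 the culture without LIF had lower signals of STAT3 targets, naive factors and basement membrane genes, and higher signals of primed epiblast and contractile genes. In passage 33 the medians of these programmes lay the other way round. That of basement membrane genes did so least, at 0.31, with 12 of 20 genes higher without LIF. The array labelled LIF 33 carried the low Socs3 signal seen in the no LIF arrays of the other passages, and the array labelled no LIF 33 carried a high one. Labels are used as given, and whether those of this pair are right was not tested. Had the labels been exchanged, the sign of every passage 33 difference would turn and the group means would change. Medians of the gene lists are therefore given with all arrays and without the passage 33 pair. By limma, 0 genes passed an adjusted p of 0.05 (0% of 13376), and the smallest adjusted p was 0.973. At an unadjusted p under 0.05, 39 genes were higher without LIF (0.292%) and 111 were lower (0.83%). With 3 arrays against 3, an exact permutation test cannot go below p = 0.1.

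Depth has no counterpart on these arrays, and their number limits the precision. The median signal was 23.3, 15.0 and 17.8 with LIF and 13.9, 15.9 and 15.6 without, in the order of passages 31, 33 and 34 that all values below follow. LIF 31 had the highest median but the lowest 90th percentile, 328.6 against 334.2 to 342.6, so "brightness" below stands for the median alone. A brightness block sets the arrays of highest median, LIF 31 and the donor arrays of passages 31 and 33, apart from the rest. Among the 6 compared arrays it thus marks LIF 31 alone. The ratio of 3' to 5' beta-actin signal was 2.19, 1.81 and 2.04 with LIF and 1.52, 1.90 and 3.15 without. Array no LIF 31 correlated at 0.977 over the tested probe sets with the passage 34 array of the donor group. No pair among the 6 arrays here was as close. These are called the near twins, and values without them are given for the lists and genes they move most. The donor array is in neither group, so log2 differences without the near twins are those without no LIF 31 alone. All 7 embryonic stem cell markers lay above the array median on all 6 arrays, with summed signals of 15136 to 22529 with LIF and 18177 to 26547 without. Fibroblast markers summed to only 98.9 to 151 with LIF and 89.9 to 150.2 without, over 7 genes of which 4 passed the filter on low signals.

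The sign of the difference was shared poorly between passages. Across the 13376 genes, the log2 difference (no LIF minus LIF) of passage 31 correlated with that of passage 33 at r = -0.575 and with that of passage 34 at r = 0.230. Passages 33 and 34 correlated at r = -0.239. These are correlations across genes, which are not independent replicates, and the 3 differences share no array. Passage 33 ran opposite to both other passages in 5018 genes (37.5%), passage 31 in 4054 (30.3%) and passage 34 in 2051 (15.3%), and the sign was the same in all 3 passages in 2253 (16.8%). The differences were widest in passage 31, with an SD of 1.42 across genes against 0.956 in passage 33 and 0.748 in passage 34. Arrays of the same label were no more alike than arrays of different labels, with a mean correlation of 0.886 over 6 pairs against 0.894 over 9. The closest of these 15 pairs was LIF 33 with no LIF 34, at 0.951, and the least alike was LIF 31 with no LIF 31, at 0.743.

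**Figure D1:**
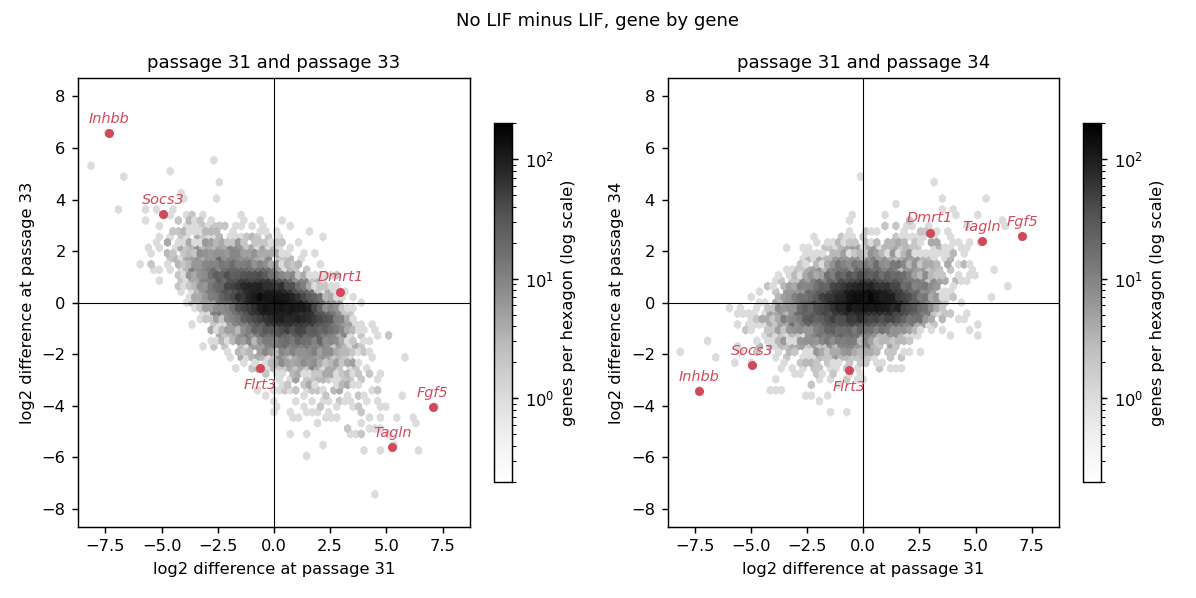
Log2 difference (no LIF minus LIF) of each of the 13376 tested genes in passage 31 on the horizontal axis against passage 33 (left) or passage 34 (right), with darker cells holding more genes. The cloud slopes down in the left panel (r = -0.575) and weakly up in the right panel (r = 0.230), and Socs3, Fgf5, Inhbb and Tagln, marked as points, lie on other sides in the 2 panels while Dmrt1 and Flrt3 do not.

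LIF pathway genes come first, by their place in the pathway. Lifr, the ligand-specific receptor chain, read 1373, 257 and 892 with LIF and 132, 734 and 245 without. Il6st, the shared signalling chain, read 655, 283 and 539 with LIF and 127, 330.4 and 371 without. Stat3 itself read 761, 256 and 407 with LIF and 123, 530.0 and 196 without. For all 3 genes the array without LIF was the lower at passages 31 and 34 and the higher at passage 33, and the groups overlapped. Their mean log2 differences were -1.23 ± 0.88 for Lifr, -0.88 ± 0.62 for Il6st and -0.87 ± 0.60 for Stat3 (± SE from limma, 3 arrays a group). Without the near twins they were -0.68, -0.40 and -0.41. Other pathway genes did not follow: Gab1, an adaptor of the receptor, read 814, 1406 and 1150.4 with LIF and 895, 1157 and 1334 without. Over the 11 tested genes of the pathway list, 7 were higher without LIF, with a median log2 difference of 0.04 against 0.01 over all tested genes and 0.17 without the passage 33 arrays.

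STAT3 targets were lower without LIF in 17 of 18 tested genes, with a median log2 difference of -0.84, while 6620 of all 13376 genes were lower. By passage the median was -1.88, 0.57 and -0.99. It was -1.45 without the passage 33 arrays and -0.23 without the near twins. With the arrays' brightness as a block it was -0.58. None of the 18 genes separated the groups, whereas 486 genes (3.63%) had all 3 no LIF arrays above all 3 LIF arrays and 492 (3.68%) had them below. Passage 33 ran opposite to the other passages in 12 of the 18.

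Socs3 and Icam1, which encodes an adhesion molecule, and Sbno2, which encodes a transcriptional co-regulator induced by STAT3 signalling, varied together across the 6 arrays. Icam1 read 3652, 483 and 1605 with LIF and 133, 2649 and 1322 without. Sbno2 read 594, 46.4 and 129.7 with LIF and 19.095, 268 and 92.1 without, and was looked at after its values were seen, for its promoter. All 3 genes were lowest on no LIF 31 and highest on LIF 31, with no LIF 33 next, and lower on LIF 33 than on LIF 34. For Icam1 the passage differences were -4.75, 2.45 and -0.28, and for Socs3 they were -4.94, 3.42 and -2.43. The mean difference of Socs3 was -1.32 ± 1.19, or -3.68 without the passage 33 arrays and -0.23 without the near twins.

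STAT3 binds a palindrome read as TTCNNNGAA on either strand. It was found in the 250 bases before the start site in 4 of the 14 tested STAT3 targets that have a promoter in the RefSeq table (GRCm38.p6): Socs3, Icam1, Sbno2 and Zfp36. Of all 10794 tested genes with a promoter, 6.99% hold it, and of all 32851 promoters 7.02%. The 4 windows are printed 5′ to 3′ on the strand of the gene with the match in capitals, because 3 of them belong to genes whose signals span a wide range here and the last to a gene whose signals lie close together. They are chr11:117969367-117969616 (minus strand) for Socs3, with the match beginning 154 bases before the start site, chr9:21015690-21015939 (plus) for Icam1, at 42 bases, chr10:80102703-80102952 (minus) for Sbno2, at 26 bases, and chr7:28379229-28379478 (minus) for Zfp36, at 17 bases.
Socs3: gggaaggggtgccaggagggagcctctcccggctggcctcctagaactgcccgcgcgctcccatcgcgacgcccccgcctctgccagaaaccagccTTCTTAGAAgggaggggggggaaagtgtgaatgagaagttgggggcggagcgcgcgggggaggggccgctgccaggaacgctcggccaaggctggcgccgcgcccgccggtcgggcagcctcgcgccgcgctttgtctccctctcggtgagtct
Icam1: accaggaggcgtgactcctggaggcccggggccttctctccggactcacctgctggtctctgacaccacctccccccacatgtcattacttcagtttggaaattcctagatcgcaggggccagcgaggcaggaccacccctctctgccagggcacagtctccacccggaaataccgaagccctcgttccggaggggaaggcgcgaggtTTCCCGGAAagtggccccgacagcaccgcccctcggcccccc
Sbno2: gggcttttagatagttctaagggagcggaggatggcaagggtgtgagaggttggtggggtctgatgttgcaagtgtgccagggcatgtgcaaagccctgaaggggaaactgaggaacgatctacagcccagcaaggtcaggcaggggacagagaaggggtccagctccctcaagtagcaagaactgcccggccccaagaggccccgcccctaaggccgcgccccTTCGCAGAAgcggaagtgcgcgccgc
Zfp36: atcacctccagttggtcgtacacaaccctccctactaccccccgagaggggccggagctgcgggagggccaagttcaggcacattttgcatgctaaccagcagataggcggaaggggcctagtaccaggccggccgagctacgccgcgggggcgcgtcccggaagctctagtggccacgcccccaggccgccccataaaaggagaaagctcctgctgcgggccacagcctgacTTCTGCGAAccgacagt
Zfp36, which encodes a protein that destabilises cytokine mRNAs, read 113, 124 and 113 with LIF and 96.9, 119.7 and 114 without. Its 6 signals span far less than those of the other 3 genes although its window holds the same palindrome. Of the 3 Sbno2 promoters in the table, 2 hold a match. A match is a description of the letters and not evidence of binding.

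**Figure D2:**
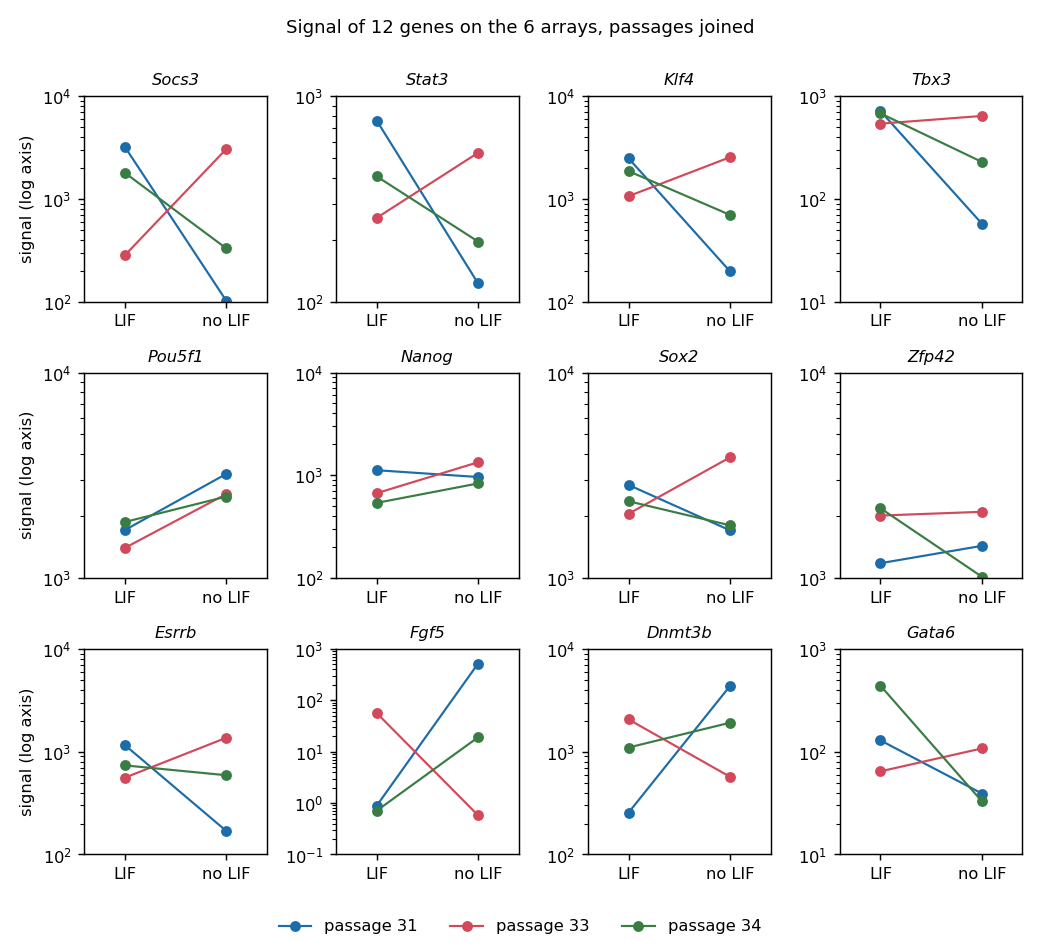
Signal on a log axis of 12 genes chosen by name, with LIF (left) and without (right) in each panel, 1 point per array and a line joining the arrays of a passage. For Socs3, Klf4, Tbx3, Esrrb and Stat3 the passage 33 line slopes up and those of passages 31 and 34 slope down, and for Fgf5 and Dnmt3b it is the reverse.

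Klf5, a naive factor and STAT3 target, read 3840.0, 2356 and 3245 with LIF and 1189, 2935 and 1477 without, a mean difference of -0.84 ± 0.41. Tbx3, which sustains naive identity, read 715, 539 and 679.6 with LIF and 57.4, 641 and 229 without, a mean difference of -1.63 ± 0.88, or -0.73 without the near twins. Only the passage 33 arrays broke the separation of these genes: without them both were lower without LIF on every array. The lowest signal of each was on no LIF 31.

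The core pluripotency genes described next stayed bright in every culture, while others of the list were dimmer on some arrays. Lin28a read 117, 902 and 380 with LIF and 869, 342 and 811 without. Foxd3 read 131, 52.6 and 65.8 with LIF and 78.0, 59.8 and 21.5 without. Pou5f1 (Oct4), the central factor of the pluripotent state, read 1711, 1401 and 1874 with LIF and 3211, 2562 and 2491 without. Each no LIF array lay above each LIF array, and the difference was 0.73 ± 0.41, 0.48 with brightness as a block. Sox2, its partner, read 2838, 2055 and 2364 with LIF and 1706, 3866 and 1805 without, and Nanog read 1120.3, 669 and 539 with LIF and 962, 1339.6 and 833 without; both overlapped between the groups. Dppa5a, an RNA-binding protein of pluripotent cells, read 7216, 6292 and 8569.7 with LIF and 6538, 9249 and 8950.2 without, and Trim28, a corepressor that silences endogenous retroviruses, read 3301 to 4124 with LIF and 3409 to 4890.3 without. Of the 13 tested core genes 10 were higher without LIF, with a median of 0.16. Pou5f1 was the single one whose groups did not overlap, where 3.63% of all genes lay above in this way. The median was 0.01 without the passage 33 arrays and 0.32 without the near twins.

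Naive factors showed the pattern of the STAT3 targets on a smaller scale. Of 22 tested genes 19 were lower without LIF, with a median of -0.55 and medians of -1.52, 0.56 and -0.64 by passage. The median was -1.10 without the passage 33 arrays and -0.03 without the near twins. In a fit that blocks on array brightness it was -0.18. In passage 33 alone 19 of the 22 were higher without LIF. Esrrb, a nuclear receptor of the naive network, read 1162, 559 and 736 with LIF and 169, 1366 and 590.4 without. Tet1, which oxidises methylated cytosine, read 1462, 498 and 1088 with LIF and 517, 763 and 377 without, lower by 1.49 and 1.52 on the log2 scale at passages 31 and 34 and higher by 0.61 at passage 33. Zfp42 (Rex1) did not follow them: it read 1181, 2014 and 2187 with LIF and 1434, 2100.4 and 1015 without, with passage differences of 0.28, 0.06 and -1.10. Fbxo15, an F-box gene driven by Oct4 and Sox2, read 1238, 646 and 1190.2 with LIF and 372, 1486 and 721 without.

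The formative and primed epiblast list mirrored this. Of 19 tested genes 14 were higher without LIF, with a median of 0.39 and medians of 2.24, -1.87 and 1.02 by passage. The median was 1.63 without the passage 33 arrays and -0.09 without the near twins, so its sign rests on no LIF 31. Passage 33 ran opposite to the others in 15 of the 19 genes, against 37.5% of all genes. Dnmt3b, the de novo DNA methyltransferase, read 255, 2062 and 1099 with LIF and 4359.7, 570.2 and 1915 without. Its highest signal was on no LIF 31 and its lowest on LIF 31, and the difference was 1.01 ± 0.85, or 0.32 without the near twins. Krt18, a simple epithelial keratin, read 159.7, 6086 and 2593 with LIF and 1536, 208 and 5928 without. Nodal, the ligand that patterns the epiblast, did not share this, at 1326, 658 and 655 with LIF and 595, 677 and 885 without.

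**Figure D3:**
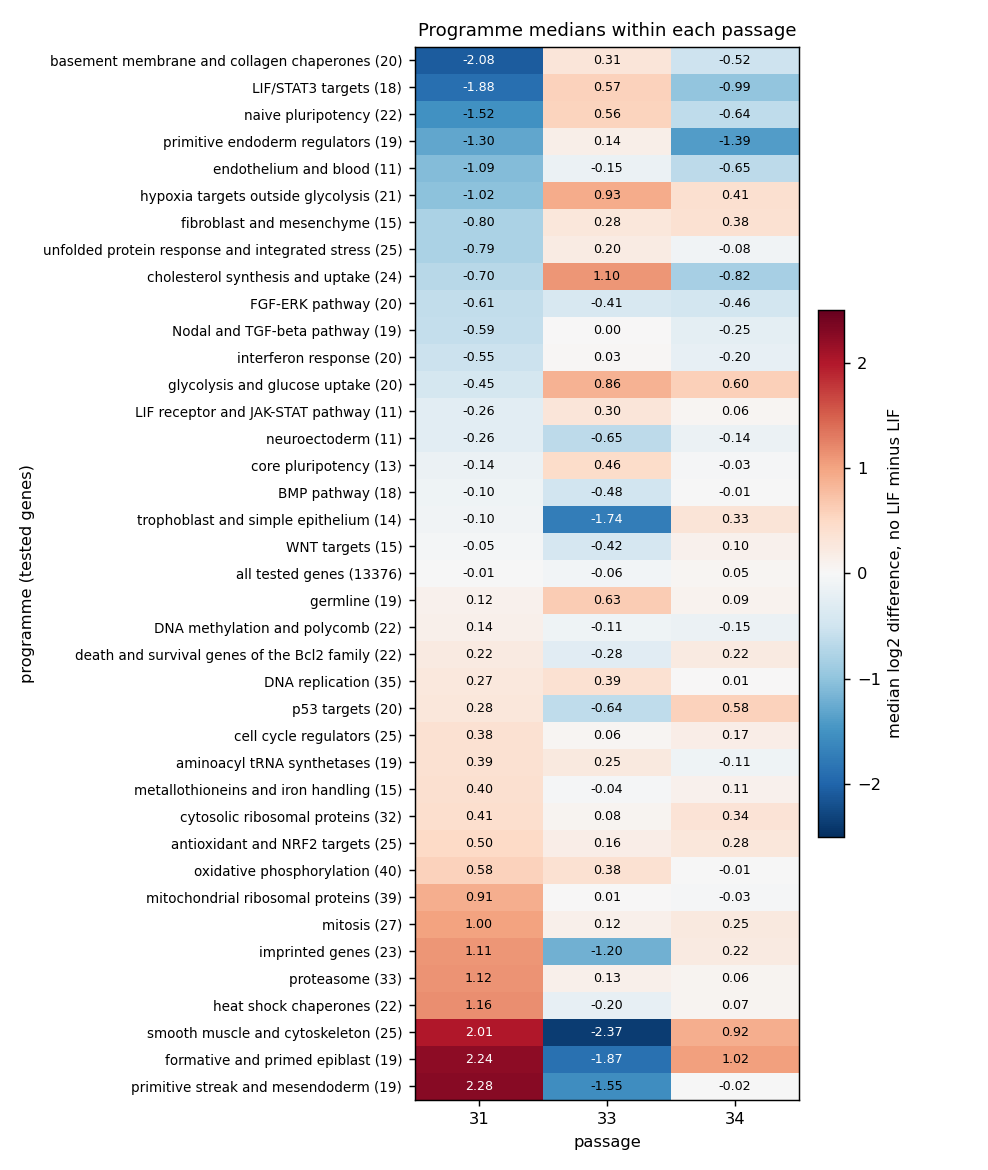
Median log2 difference (no LIF minus LIF) of all tested genes and of 38 gene lists, 1 row each, in passages 31, 33 and 34, with the value written in each cell and colour from lower to higher without LIF. STAT3 targets, naive factors and cholesterol genes are negative, positive and negative across the columns, and primed epiblast and smooth muscle genes are the reverse.

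Primitive streak genes were high on 2 arrays of different labels. Each gene was centred on its own mean over the compared arrays. The mean centred log2 level of the list was 1.33 on no LIF 31 and 1.04 on LIF 33. It lay between -0.92 and -0.40 on the other 4. The list median was 0.10 over 19 genes, with 2.28, -1.55 and -0.02 by passage. Eomes, a streak and endoderm factor, read 55.7, 144 and 56.9 with LIF and 522, 54.1 and 39.9 without. Cyp26a1, which breaks down retinoic acid, read 1.41, 170.2 and 11.7 with LIF and 360.5, 0.403 and 20.4 without, and Fgf8, a streak ligand, read 11.4, 183 and 0.991 with LIF and 234, 0.757 and 46.1 without. On no LIF 31 these genes had their highest signal, and LIF 33 came next for all 3. Pdgfra ran otherwise, at 96.4, 62.8 and 509 with LIF and 32.3, 109.6 and 23.3 without, highest on LIF 34. The list median was 0.98 without the passage 33 arrays and -0.55 without the near twins.

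Primitive endoderm regulators were lower without LIF in 15 of 19 tested genes, with a median of -0.78 and medians of -1.30, 0.14 and -1.39 by passage. Without the passage 33 arrays the median was -1.20, and without the near twins -0.48. Gata6, which specifies the lineage, read 129, 64.4 and 439 with LIF and 39.2, 108 and 32.9 without, a difference of -1.52 ± 0.66 (limma, unadjusted p = 0.044). Foxq1, a forkhead factor, read 70.3, 36.8 and 96.3 with LIF and 24.4, 35.5 and 27.3 without, and Hnf4a, a factor of visceral endoderm, read 16.5, 11.2 and 12.1 with LIF and 4.93, 2.68 and 5.95 without. These were the 2 of 19 genes below on every no LIF array, against 3.68% of all genes, and Hnf4a is dim throughout. The 7 extraembryonic endoderm markers, 6 of them members of this list, summed to 496 to 4180.4 with LIF and 339.6 to 1481 without. Most of the highest sum, on LIF 34, was Lama1, at 2976, and Foxa2 was highest on no LIF 31. In bulk RNA, fewer cells of a type and less RNA per cell cannot be told apart.

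Basement membrane and collagen chaperone genes were lower without LIF in 18 of 20 tested genes, with a median of -0.61. By passage the median was -2.08, 0.31 and -0.52, and it was -1.32 without the passage 33 arrays and -0.10 without the near twins. Serpinh1, the collagen chaperone, read 1985, 2321 and 3512 with LIF and 412, 1578 and 2534 without, lower without LIF in each passage (log2 differences of -2.26, -0.56 and -0.47), though the groups overlapped. Itga6, a laminin receptor, read 3643, 1608 and 3096 with LIF and 359.6, 2189 and 1738 without. Sparc, a matrix glycoprotein, read 3262, 2624 and 5512 with LIF and 997, 2412 and 3736 without. Ctsl, a cathepsin abundant in parietal endoderm, differed little, by -0.07 ± 0.34.

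Keratins and trophoblast factors differed widely between arrays of the same label. Krt8, the partner of Krt18, read 411, 4314 and 2611 with LIF and 1648, 397 and 4762 without, and Krt19 read 81.4, 589 and 290 with LIF and 446, 144 and 1485 without. Both were lowest on LIF 31 and no LIF 33 and highest on no LIF 34, with LIF 33 next. Over 14 tested genes the list median was -0.57, with -0.10, -1.74 and 0.33 by passage, and it was 0.51 without the passage 33 arrays and -0.29 without the near twins. The 5 trophoblast markers, 4 of them members of this list, summed to 72.0, 837 and 291 with LIF and 95.7, 46.3 and 511 without. The keratin Krt7 made up much of the highest sums, at 459 on LIF 33 and 399 on no LIF 34. Neural markers summed to 99.7 to 146 with LIF and 51.4 to 79.7 without, of 5 genes with 3 above the filter, and the neuroectoderm list, which holds those 3, had 5 of 11 genes higher and a median of -0.47, or -0.12 without the passage 33 arrays.

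The contractile and cytoskeletal list had the widest reversal at passage 33. Of 25 tested genes 21 were higher without LIF, yet the median was only 0.20, with 2.01, -2.37 and 0.92 by passage. In passage 33 a single gene of the 25 was higher without LIF. Lgals1, a galectin tied to smooth muscle and mesenchyme, read 331, 3507 and 2347 with LIF and 2184, 676 and 4416 without. Tagln (transgelin), an early smooth muscle protein, read 11.2, 1015 and 206 with LIF and 545, 17.8 and 1087 without. Flna, the actin cross-linker filamin A, and Actn4, an actinin, were far steadier, at 1294 to 1435 and 1493 to 2415 with LIF and 851 to 2802 and 1386 to 3270.3 without. The median was 1.49 without the passage 33 arrays and 0.03 without the near twins. Blocking on brightness gave -0.10.

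Cholesterol synthesis genes also turned over at passage 33. Of 24 tested genes 18 were lower without LIF, with a median of -0.27 and medians of -0.70, 1.10 and -0.82 by passage. At passage 34 all 24 were lower and at passage 33 21 were higher. Scd1, a fatty acid desaturase, read 2214, 157 and 1396 with LIF and 247, 1625 and 382 without, and Scd2, its paralog, read 8486, 2452 and 7247 with LIF and 3706, 5303 and 4364 without. Fdps, a synthase of the mevalonate route, read 1035, 288 and 1189.6 with LIF and 799, 1325 and 514 without. For all 3 the array LIF 33 had the lowest signal. The median was -0.82 without the passage 33 arrays and -0.07 without the near twins. Blocking on brightness gave -0.05.

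In several housekeeping programmes nearly all members had a mean difference above 0. Mitosis genes were higher without LIF in 26 of 27, with a median of 0.44 and medians of 1.00, 0.12 and 0.25 by passage, and 0.71 without the passage 33 arrays. Of these, 9 had all no LIF arrays above all LIF arrays, against 3.63% of all genes. Higher in all 3 passages were 10, those 9 included, against 8.28%. Cdc20, the activator of the anaphase-promoting complex, read 3305, 3896 and 3043 with LIF and 4078, 4289.9 and 4809 without, a difference of 0.37 ± 0.26. Incenp, the scaffold of the chromosomal passenger complex, read 1239.9, 1293 and 1435 with LIF and 1553, 2002 and 2136 without, likewise without overlap. Top2a, which untangles chromosomes, overlapped, at 1432 to 2584 with LIF and 2477 to 3228 without. Pttg1 (securin) went against the list at passage 31, at 1644 on LIF 31 and 613 on no LIF 31.

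Of the proteasome genes 31 of 33 were higher, their median being 0.48 (1.12, 0.13 and 0.06 by passage). Of these, 6 had all no LIF arrays above all LIF arrays, against 3.63% of all genes. Psmb7, a catalytic subunit, read 1588, 3671 and 3567 with LIF and 3779, 4023 and 3963 without. Only LIF 31 stood well apart from the other 5 arrays. Mitochondrial ribosomal proteins were higher in 37 of 39 (median 0.38, by passage 0.91, 0.01 and -0.03), oxidative phosphorylation subunits in 38 of 40 (0.30, by passage 0.58, 0.38 and -0.01), and cytosolic ribosomal proteins in 30 of 32 (0.30, by passage 0.41, 0.08 and 0.34). Mrpl15 read 1123, 1367 and 1259.8 with LIF and 1583, 2296 and 2221 without. Array LIF 31 had the highest median signal and the lowest mean centred level of the mitosis list. With brightness as a block the medians were 0.18 for mitosis, 0.15 for the proteasome and 0.09 for mitochondrial ribosomes. They were 0.12 for oxidative phosphorylation and 0.18 for cytosolic ribosomes. Among the 6 arrays this block marks LIF 31 alone, so brightness cannot be told apart from any other trait of LIF 31. The part of brightness in these differences was not tested further. At passage 34 the higher genes were 18 of 33, 18 of 39 and 19 of 40 in the proteasome, mitochondrial ribosome and oxidative phosphorylation lists. Without the passage 33 arrays the medians were 0.54, 0.48 and 0.33 for these and 0.35 for cytosolic ribosomal proteins. Scaling matters here too: the median of all genes was 0.25 after median centring and 0.12 after quantile normalization. Against those, proteasome genes had 0.73 and 0.34 and cytosolic ribosomal proteins 0.54 and 0.03, so the latter lay below the all-gene median after quantile normalization.

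In oxygen-responsive genes passage 33 had the sign of passage 34, and passage 31 the opposite one. Glycolysis genes were higher without LIF in 15 of 20, with medians of -0.45, 0.86 and 0.60 by passage and 0.49 in all. Hypoxia targets outside glycolysis were higher in 14 of 21, with medians of -1.02, 0.93 and 0.41 and 0.21 in all. Bnip3, a mitophagy receptor, read 411, 577 and 915 with LIF and 953, 1058 and 1936 without, and Higd1a, a mitochondrial hypoxia gene, read 550.1, 749 and 1047 with LIF and 1195, 1376 and 1737 without. Both were above on every no LIF array, by 1.05 ± 0.55 and 0.91 ± 0.54. Glucose transporters did not follow: Slc2a1 read 11957, 4575 and 8587 with LIF and 3756, 8533 and 8898 without, and Slc2a3 read 12085, 6573 and 8244 with LIF and 4338, 8057 and 9383 without, both highest on LIF 31. Without the passage 33 arrays the glycolysis median was 0.13 and that of the other hypoxia targets -0.03, whereas without the near twins they were 0.73 and 0.78.

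A germline gene had the largest difference among the bright genes whose groups did not overlap, which implies the same sign in every passage. Dmrt1, a transcription factor of the gonad, read 31.6, 115 and 39.5 with LIF and 265, 156 and 276 without. The lowest no LIF array lay above the highest LIF array, both from passage 33, and the difference was 2.03 ± 0.57 (limma, unadjusted p = 0.00482, adjusted p = 0.973). It was 2.83 without the passage 33 arrays and 1.92 without the near twins. Sycp3, of the meiotic chromosome axis, read 40.9, 99.7 and 51.3 with LIF and 348, 113 and 113 without, and Ddx4 (Vasa), a germ cell helicase, read 29.7, 105 and 106 with LIF and 217, 116 and 130.04 without. Mael, of the transposon-silencing piRNA pathway, read 86.2, 32.4 and 101 with LIF and 142, 258 and 107 without, so its gap was narrow at passage 34. Of 19 tested germline genes 12 were higher, 6 had groups without overlap, all above, against 3.63% of all genes, and the median was 0.39. Kit, the stem cell factor receptor, ran against them, at 1161, 85.3 and 405 with LIF and 30.3, 743 and 316 without, and without the passage 33 arrays the list median was -0.07.

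Genes of the same sign in all passages were counted over all tested genes, list members included. Higher in all 3 passages were 1107 genes (8.28%) and lower in all 3 were 1146 (8.57%). Among genes whose groups did not overlap and whose mean signal reached 100 in the higher group, 348 were higher and 195 lower. With median centring the genes without overlap were 895 above and 191 below in place of 486 and 492. Those named here were taken by size, so their values are a description. Ahcy, which clears S-adenosylhomocysteine after methylation, read 1355, 2114 and 1794 with LIF and 3718, 3108 and 3757 without, a difference of 1.02 ± 0.33. Cdkn1a (p21), the inhibitor of cyclin-dependent kinases, read 393, 361 and 241 with LIF and 622, 646 and 674 without. Both were separated by a clear gap, and their no LIF arrays were close to each other. Acot1, an acyl-CoA thioesterase, read 23.8, 52.2 and 29.6 with LIF and 196, 82.5 and 104 without, and Syce2, of the synaptonemal complex, read 245, 712 and 451 with LIF and 1302, 745 and 1003 without.

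Lower without LIF, Flrt3, a transmembrane protein of adhesion and FGF signalling, read 63.6, 107 and 192 with LIF and 40.4, 15.9 and 28.8 without, a difference of -1.93 ± 0.55. Ntn1, the secreted guidance cue netrin, read 533, 525 and 500.0 with LIF and 124, 296 and 312 without. Its 3 LIF arrays were nearly equal and the no LIF arrays lay well below them. Nfat5, the osmotic stress factor, read 246, 75.9 and 98.1 with LIF and 34.0, 51.7 and 49.9 without, and Atp11a, a phospholipid flippase, read 276, 253 and 260.5 with LIF and 47.3, 158 and 127 without. Luc7l2 and Rbm25, both of splicing, were also below on every no LIF array, with differences of -1.25 ± 0.64 and -1.20 ± 0.60, but their other probe sets disagreed: 3 of 6 for Luc7l2 and 3 of 5 for Rbm25 had the same sign. Both were brightest on LIF 31, at 2519 and 1116.

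**Figure D4:**
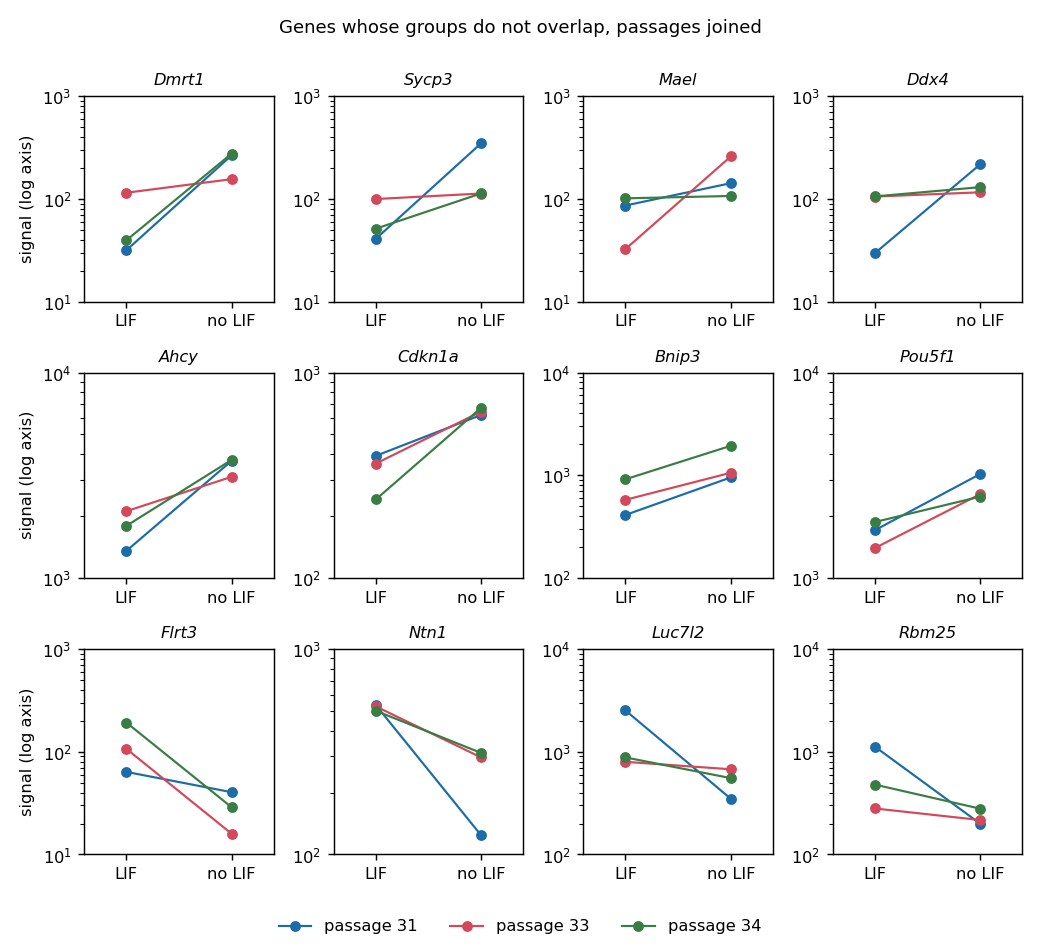
Signal on a log axis of 12 genes whose 3 arrays without LIF lie all above or all below the 3 with LIF, 1 point per array with arrays of a passage joined. Dmrt1, Sycp3, Mael, Ddx4, Ahcy, Cdkn1a, Bnip3 and Pou5f1 lie higher without LIF and Flrt3, Ntn1, Luc7l2 and Rbm25 lower; the gap is narrow for Mael, 101 against 107, and wide for Ahcy, 2114 against 3108.

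A few genes of the signalling lists also had groups without overlap. Of 15 WNT targets 1 lay above and 2 below, and of 19 Nodal and TGF-beta genes 0 and 2. Of 18 BMP genes 1 lay above and 1 below, and of 20 FGF-ERK genes 0 and 2. Over all genes the shares were 3.63% above and 3.68% below. Dkk1, a secreted WNT inhibitor, read 46.2, 84.5 and 135 with LIF and 21.7, 11.5 and 37.1 without, below on every no LIF array, a difference of -1.79 ± 0.65. Tgfbr2, the TGF-beta receptor, read 136, 60.8 and 57.9 with LIF and 37.4, 32.1 and 38.1 without, a difference of -1.07 ± 0.42. Ccnd1 (cyclin D1) lay above, at 254, 342 and 246 with LIF and 595, 417 and 452 without, a difference of 0.79 ± 0.34. Groups that do not overlap must have the same sign in every passage, so these 3 necessarily kept their side at passage 33. Bmp4, the BMP ligand, did not quite, at 561, 313 and 1197 with LIF and 112, 322 and 135 without, a difference of -1.79 ± 0.60 (limma, unadjusted p = 0.0124). FGF-ERK genes were lower in 17 of 20, with medians of -0.61, -0.41 and -0.46 by passage and -0.51 without the passage 33 arrays. The medians had the same sign in each passage, but 7 of the 20 were higher at passage 33. Passage 33 ran opposite to both others in 10 of the 20, against 37.5% of all genes. Lower in all 3 passages were 5, against 8.57%. In this list Dusp6, the ERK phosphatase, read 572, 806 and 556 with LIF and 781, 342 and 341 without. Fgf4, the autocrine ligand, read 1318, 444 and 1056 with LIF and 234, 1028 and 907 without. Rsad2 (viperin) read 25.3, 27.4 and 31.8 with LIF and 9.38, 9.81 and 5.54 without. It was 1 of 2 genes below on every no LIF array among 20 tested interferon genes, against 3.68% of all genes. That list had 10 genes higher and 10 lower without LIF. Its median was -0.06, or -0.33 without the passage 33 arrays.

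Other lists differed by less or in both directions. DNA methylation and polycomb genes were higher without LIF in 10 of 22, with a median of -0.11, which was 0.13 after median centring, 0.05 without the near twins and -0.07 without the passage 33 arrays. Rbbp4, a histone chaperone of several repressive complexes, read 2838, 3440.1 and 3148 with LIF and 3492, 4527 and 3883 without, whereas Jarid2, which recruits polycomb complex PRC2, read 2048, 1733 and 2840.1 with LIF and 1666, 1589 and 1558 without. These lay on opposite sides, each without overlap. They were the 1 of 22 above and the 1 of 22 below, against 3.63% and 3.68% of all genes. Of the heat shock chaperones 16 of 22 were higher, the median being 0.29 those by passage 1.16, -0.20 and 0.07, and that without the passage 33 arrays 0.63; Cct2, of the TRiC chaperonin, read 2561, 4689 and 4618 with LIF and 4957, 5445 and 6005 without. Among DNA replication genes 31 of 35 were higher and the median was 0.28, or 0.22 without the passage 33 arrays, though the bright Mcm5, of the replicative helicase, overlapped at 3220.3 to 4846 with LIF and 3408 to 4979 without. Among unfolded protein response genes 7 of 25 were higher and the median was -0.31, or -0.44 without the passage 33 arrays; Calr, the calcium-binding chaperone calreticulin, read 7749, 2985 and 5931 with LIF and 2185, 4668 and 5961 without. Cell cycle regulators were higher in 13 of 25 (median 0.03, or 0.24 without the passage 33 arrays), with Ccnd3 (cyclin D3) at 1348, 895 and 1667 with LIF and 374, 2050.1 and 1187 without. Metallothionein Mt1, a metal-binding protein, was highest on no LIF 34, at 1412, 3377 and 2439 with LIF and 2228, 2381 and 5577 without, and its list had 7 of 15 genes higher and a median of -0.10, or 0.17 without the passage 33 arrays.

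Genes with the strongest opposition at passage 33 were chosen by these same values, which are a description. Inhbb, the subunit of activin B, read 3039, 9.77 and 631 with LIF and 16.1, 1205 and 55.1 without, and its passage differences were -7.32, 6.56 and -3.45. Rapgef3, the cyclic AMP sensor Epac1, read 1365, 6.76 and 145 with LIF and 1.86, 388 and 34.5 without. Jam2, a junction protein, read 1186, 191 and 1383 with LIF and 69.1, 1302 and 136 without. In the other direction, Esrp1, an epithelial splicing regulator, read 2.39, 344 and 38.9 with LIF and 425, 9.81 and 331 without. Wnt4 read 3.66, 201 and 52.2 with LIF and 101, 3.09 and 335 without, although its other probe set had the opposite mean sign. In each of these genes LIF 33 stood nearer to no LIF 31 and no LIF 34 than to LIF 31, and no LIF 33 nearer to LIF 31. Of the 6650 genes with a mean signal of 100 or more, 1479 were higher without LIF at passages 31 and 34 and lower at passage 33. The reverse held for 979 of the 6650. Over all 13376 tested genes, passage 33 ran opposite to both other passages in 37.5%.

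Each passage also had its own extremes. At passage 31 the highest included Fgf5 (7.07) and Cyp26a1 (6.37) and the lowest Rapgef3 (-8.14), Inhbb (-7.32) and Emp1 (-6.89), an epithelial membrane protein. Fgf5 read 0.888 and Cyp26a1 1.41 on LIF 31, and Rapgef3 read 1.86 and Emp1 2.25 on no LIF 31. Near such signals the size and order of the differences depend on the pseudocount of 3. At passage 33 the lowest included Prss23 (-7.51), a serine protease, and Igf2 (-5.89), the imprinted growth factor, which read 22.4, 1836 and 1144 with LIF and 62.5, 28.0 and 610.1 without. At passage 34 Lamb3, a laminin chain, had 4.94 and Pdgfra had -4.28. Lamb3 had -0.24 and -1.94 in the other passages, so its place rests on 1 pair of arrays. Imprinted genes as a list had medians of 1.11, -1.20 and 0.22 by passage and -0.15 in all. The median was 0.09 after median centring and 0.35 without the passage 33 arrays, when 18 of 23 genes were higher.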

How the data were processed

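Signal intensities of 6 Affymetrix arrays, 3 labelled with LIF and 3 without, were analysed, and the 3 arrays of the donor group entered the fit. The authors deposited linear intensities made with GeneChip Operating System and global scaling, per the labels' protocols; MAS5 is named per the submitters' processing notes. The trimmed mean (2% off each end) of every array was 100.001. Neither scanner files nor detection calls were used here. Values were turned to log2(signal + 3), a scale that understates the change of dim genes. Of 45101 probe sets, 64 controls were left out, and the 29811 at or above the 40th percentile of their array on at least 3 of the 9 arrays were tested. The file's platform annotation gave 34945 probe sets 1 symbol. The probe set with the highest mean log2 value stood for a gene, a rule settled after values under the linear mean had been seen.

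Differences were tested with limma 3.58.1 in R 4.3.3 (lmFit, eBayes with an intensity trend, two-sided) in 1 fit with group as the only term, with Benjamini-Hochberg adjustment over the whole tested set. The fit was tested on simulated data. The 38 lists hold 936 genes, of which 863 matched; they are described by counts and medians, with no test. The lists and the genes named were chosen with earlier results of these data known. Named were 12 genes by name, the 4 brightest members of each list and its members of at least 1 on the log2 scale whose groups do not overlap, and the most extreme genes of fixed classes of pattern. Promoter windows are from RefSeq. Same-numbered arrays did not deviate together (r = -0.423, -0.597 and -0.0373 for passages 31, 33 and 34), so passage was not taken as a pairing. Alternatives were the pseudocount, filter, scaling, probe set choice, variance trend, arrays used, and blocks for replicate and brightness.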

Additional observations from a re-analysis of the deposited data

Results flagged for a closer look

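In 16 of the 38 gene lists the passage 33 arrays had a median log2 difference (no LIF minus LIF) opposite to both other passages. The 5 given here are those in which it was at least 0.5 in size in each passage. It was 0.57 for STAT3 targets, against -1.88 and -0.99 at passages 31 and 34, and 0.56 for naive factors, against -1.52 and -0.64. For formative and primed epiblast genes it was -1.87, against 2.24 and 1.02. It was -2.37 for smooth muscle and cytoskeletal genes, against 2.01 and 0.92, and 1.10 for cholesterol synthesis genes, against -0.70 and -0.82. Each passage has 1 array a group, so the difference between passages was not tested.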

How the results depend on the processing

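The 3 arrays a group limit every result, and dim genes are limited further by the pseudocount. No alternative gave a gene an adjusted p under 0.05 by limma; the smallest adjusted p ran from 0.476 without the passage 33 arrays to 1.00. Probe sets with an unadjusted p under 0.05 numbered 82 higher and 377 lower. The counts were 254 and 881 with no filter, 38 and 119 with the filter at the 60th percentile, 174 and 231 after quantile normalization, 218 and 197 after median centring, 730 and 1714 without the passage 33 arrays, and 214 and 574 without the near twins. Probe sets without shared-sequence suffixes gave 54 higher, and a brightness block gave 196 lower. Leaving out 1 array at a time gave 59 to 322 higher and 186 to 1431 lower, both highest without LIF 33.

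Genes without overlap were 895 above and 191 below after median centring, and 2980 and 2687 without the passage 33 arrays, where 2 arrays face 2. Below, they numbered 817 with no filter, 296 at the 60th percentile, 303 after quantile normalization, and 172 at a mean signal of 100 or more.

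Some list medians moved by more than the SD of their medians by passage. That limit is wide for the 5 lists that reversed at passage 33 by at least 0.5 in each passage. None of these 5 medians moved beyond it. Of the 5, STAT3 targets still went from -0.84 to -0.23 without the near twins. Formative and primed epiblast genes went from 0.39 to -0.09 without them. The medians that follow did move beyond the limit. Neuroectoderm was -0.14 with a pseudocount of 16 and -0.12 without passage 33 (-0.65 to -0.065 with 1 array left out). Without passage 33, germline was -0.072 and the BMP pathway -0.059 (-0.53 to -0.068 with 1 array left out). FGF-ERK was -0.18 after median centring, -0.32 without the near twins and -0.26 with a brightness block (-0.51 to -0.30). DNA methylation and polycomb was 0.13 after median centring and 0.052 without the near twins (-0.10 to 0.052). Median centring also gave 0.28 for cell cycle regulators, 0.53 for DNA replication, and 0.54 for both antioxidant genes and cytosolic ribosomal proteins, whose median was 0.033 after quantile normalization. Cell cycle regulators had 0.24 without passage 33. Metallothioneins and iron handling had 0.23 at the 60th percentile, 0.15 after median centring, 0.17 without passage 33 and 0.31 without the near twins (-0.29 to 0.31). The cause was not tested.

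Of the 38 medians, 7 had another sign without the near twins, 5 each without passage 33, with a brightness block and after median centring, and 0 with another pseudocount or with the linear-mean probe set, added after seeing the data. Of 201 named genes, 44, 17, 32 and 21 did so under the first 4 of these. A replicate block cannot change a log2 difference, because the groups hold the same passages in equal number. With this block 0 genes passed by limma and the smallest adjusted p was 0.990. The block changed no call.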
